A study of Mus musculus with 12 samples.

Results

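A group of 9 genes of itaconate and citrate metabolism was followed in mouse bone marrow neutrophils on immobilized immune complexes (IC): *Acod1*, *Idh1*, *Idh2*, *Idh3a*, *Cs*, *Aco1*, *Acly*, *Slc25a1* and *Mdh1*. They were found by the gene symbol that the array annotation gives to a transcript cluster, the set of probes that reads the transcripts of a gene, and each of the 9 genes matched exactly 1 of the 28944 clusters tested. The list was selected on measured values of these arrays. *Idh1* was already known to pass the test between *Card9*-/- and wild-type cells on IC, and *Acod1*, which has the older symbol *Irg1*, belongs to the genes that the study picked for their large response to IC in wild-type cells. The value of *Idh1* in the first comparison and that of *Acod1* in the other are therefore given as descriptions without a test.

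The 4 groups were *Card9*-/- neutrophils on IC, *Card9*-/- neutrophils on the control surface, wild-type neutrophils on IC and wild-type neutrophils on the control surface. The mutant mice were homozygous for the *Card9* tm1Jrld allele, a conventional deletion present in every cell of the animal and backcrossed to C57BL/6, and the wild type was C57BL/6. According to the methods of the study the mice were adults of both sexes, and the cells, labelled Ly6G+, came from density gradients of bone marrow. The IC surface carried human serum albumin with its antibody and the control surface carried the albumin alone. Cells were lysed after 4 h, with adherent and nonadherent cells combined, and 150 ng of RNA per sample went onto an Affymetrix mouse gene array. Each of 3 experiments, done at separate times, held 1 array of every group, which gives 12 arrays. Whether a sample came from 1 mouse or from several is not given. The p values therefore measure how far differences between groups vary between these experiments, once the level of each experiment is removed. All values are deposited log2 signals, in which a difference of 1 is a doubling. Cells pooled in bulk do not show whether a signal is lower because fewer cells of a type were present or because each held less RNA.

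Citrate synthase, aconitase and isocitrate dehydrogenase carry out the first steps of the tricarboxylic acid (TCA) cycle in mitochondria. ACOD1 diverts the intermediate cis-aconitate into itaconate, an inhibitor of succinate dehydrogenase that activated macrophages and neutrophils make in quantity. Citrate can also leave the mitochondrion for the cytosol, where it is cut into acetyl-CoA for lipid synthesis or passed through isocitrate to 2-oxoglutarate with the production of NADPH, the cofactor that the phagocyte oxidase consumes. CARD9 is an adaptor downstream of Syk-coupled receptors, Fc receptors among them, and passes their signal to NF-κB.

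The promoters of *Acod1* and *Idh1*, the members on which the results turn, are shown because CARD9 acts on transcription through NF-κB. They are RefSeq sequences of build GRCm38.p6, and each runs 5′ to 3′ over the 250 bases that precede a start site, on the strand of the gene. Capitals mark in *Acod1* a palindromic κB motif at position -85 and a TATA box at position -28, and at the second start of *Idh1* the core of a sterol regulatory element at position -59, counted from the start site:
Acod1, plus strand, chr14:103046762-103047011: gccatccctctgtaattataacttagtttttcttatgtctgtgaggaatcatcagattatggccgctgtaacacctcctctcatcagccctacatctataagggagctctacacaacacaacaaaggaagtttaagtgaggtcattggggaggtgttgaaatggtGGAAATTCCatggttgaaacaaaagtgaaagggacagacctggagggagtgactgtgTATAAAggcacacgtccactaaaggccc
Idh1, first start, minus strand, chr1:65186480-65186729: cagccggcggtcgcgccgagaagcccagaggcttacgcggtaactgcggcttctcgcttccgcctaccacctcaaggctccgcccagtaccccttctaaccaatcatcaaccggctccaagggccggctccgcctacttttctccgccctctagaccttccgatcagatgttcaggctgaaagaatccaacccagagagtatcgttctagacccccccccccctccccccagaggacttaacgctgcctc
Idh1, second start, minus strand, chr1:65179143-65179392: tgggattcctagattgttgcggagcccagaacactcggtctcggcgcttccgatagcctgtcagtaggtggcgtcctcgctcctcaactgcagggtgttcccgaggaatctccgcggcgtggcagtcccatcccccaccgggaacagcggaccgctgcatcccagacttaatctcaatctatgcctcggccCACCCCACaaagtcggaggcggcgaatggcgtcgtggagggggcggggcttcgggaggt
Both strands were searched. GGAANTTCC, the palindromic κB pattern, which was added once the sequence of *Acod1* had been read, occurred in 0.813% of 32851 promoters. TATAAA occurred in 12.4% and CACCCCAC, the sterol element core, in 2.58%. The κB pattern GGGANNTTC (3.23% of promoters), the AP-1 pattern TGANTCA (6.75%) and the antioxidant response pattern TGACNNNGC (10.2%) had no match in these windows. Of the 9 members 8 were found in the promoter table, all but *Idh3a*, and the windows of the other members held none of these motifs.

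The labels were checked on *Card9* itself. It had log2 signals of 6.42, 6.01 and 5.56 in *Card9*-/- cells on IC and 6.39, 5.94 and 5.70 in *Card9*-/- cells on the control surface, against 8.08, 8.21 and 8.50 in wild-type cells on IC and 8.42, 8.43 and 8.75 on the control surface, in experiments 1, 2 and 3. The genotypes did not overlap, and the log2 difference was -2.27 on IC (adjusted p = 0.00491, limma) and -2.52 on the control surface (adjusted p = 0.00229, limma). No source states whether these probes read the deleted part of the gene. The neutrophil markers were high on every array, with *Ly6g* at 11.84 to 12.64 and *S100a8* at 12.43 to 12.75. Array medians were 5.70 to 5.75 in experiment 1, 5.86 to 5.93 in experiment 2 and 5.27 to 5.39 in experiment 3, so that values are compared within an experiment.

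*Acod1*, which encodes the enzyme that makes itaconate, was brightest in wild-type cells on IC. Its log2 signals in experiments 1, 2 and 3 were 10.96, 11.28 and 12.10 in *Card9*-/- cells on IC and 8.75, 11.18 and 11.55 in *Card9*-/- cells on the control surface. In wild-type cells they were 12.43, 12.43 and 12.53 on IC and 10.12, 12.06 and 11.92 on the control surface. All wild-type values on IC thus lay above all others, and those of the 3 remaining groups overlapped. In order of level the means were 12.46 ± 0.057 for wild type on IC, 11.45 ± 0.59 for *Card9*-/- on IC, 11.37 ± 1.08 for wild type on the control surface and 10.50 ± 1.52 for *Card9*-/- on the control surface (SD, n = 3 each). *Card9*-/- on IC and wild type on the control surface differed by less than their spread.

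The response of *Acod1* to IC was positive in each experiment and genotype, but very unequal in size. In *Card9*-/- cells the log2 difference was 2.20, 0.09 and 0.55 in experiments 1, 2 and 3, with a mean of 0.95 (SE 0.42, 95% confidence interval 0.03 to 1.87, adjusted p = 1.00, limma). In wild-type cells it was 2.31, 0.37 and 0.61, with a mean of 1.10 (SE 0.42), which is 2.14-fold. Experiment 1 had the lowest control signals and the largest differences, and its omission brought the mean to 0.32 in *Card9*-/- and 0.49 in wild-type cells. The difference between the genotypes in this response was small, -0.10, -0.28 and -0.06 in the 3 experiments with a mean of -0.15, and its interval was wide (-1.44 to 1.15). It contains the wild-type response on which *Acod1* was picked and carries no test.

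In every experiment and on both surfaces the *Acod1* signal of *Card9*-/- cells lay below that of wild-type cells. On IC the difference was -1.47, -1.15 and -0.43 with a mean of -1.02 (interval -1.94 to -0.10), a fold of 0.494. This value uses the wild-type IC arrays on which the gene was picked and carries no test. On the control surface, whose wild-type arrays also entered the choice of the gene, it was -1.37, -0.88 and -0.37 with a mean of -0.87 (SE 0.42, interval -1.79 to 0.05, adjusted p = 0.954, limma). The smaller size in experiment 3 was shared by both surfaces, and without experiment 1 the means were -0.79 on IC and -0.63 on the control surface. In wild-type cells on IC the *Acod1* signal exceeded that of 99.5% to 99.7% of clusters on the array, where the highest signal of any cluster on an array was 13.4 to 13.8, while in *Card9*-/- control cells of experiment 1 it exceeded 86.1%. Whether the signal of the brightest arrays was limited by saturation was not tested.

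**Figure D1:**
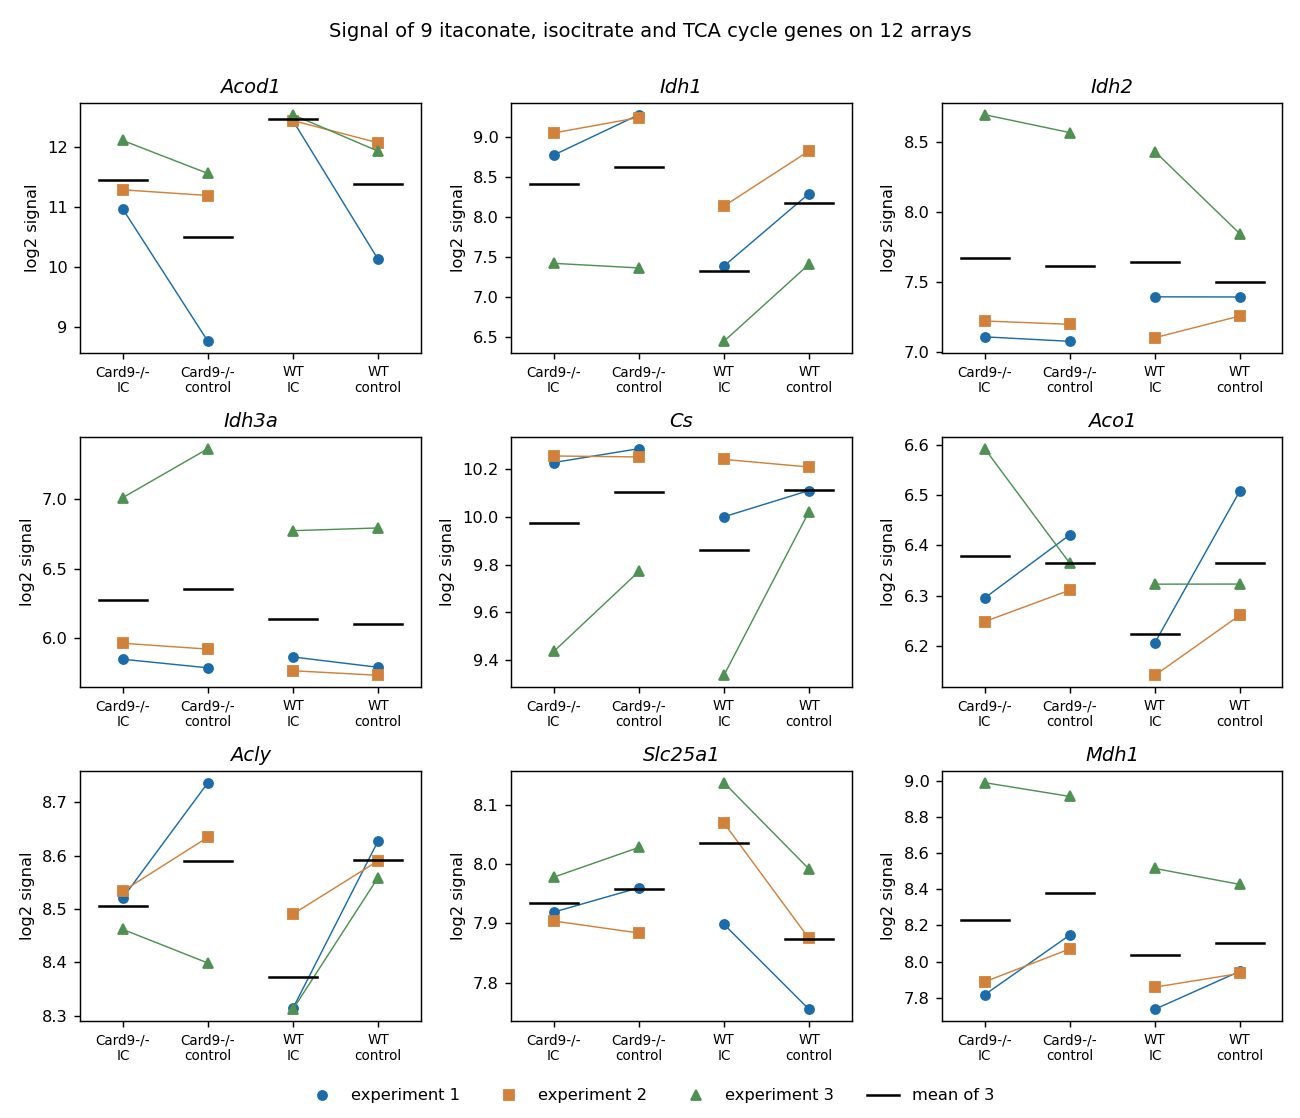
Log2 signal of each of the 9 genes in *Card9*-/- cells on IC, *Card9*-/- cells on the control surface, wild-type cells on IC and wild-type cells on the control surface. Markers are single arrays, shaped and coloured by experiment, thin lines join IC and control of the same genotype and experiment, short bars are means of 3 arrays, and each panel has its own vertical scale. Wild-type cells on IC hold the 3 highest values of *Acod1* and, within each experiment, the lowest of *Idh1*.

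*Idh1* encodes the cytosolic and peroxisomal isocitrate dehydrogenase, which makes NADPH. Its log2 signals in experiments 1, 2 and 3 were 8.77, 9.05 and 7.42 in *Card9*-/- cells on IC and 9.27, 9.24 and 7.37 in *Card9*-/- cells on the control surface. In wild-type cells they were 7.39, 8.14 and 6.45 on IC and 8.29, 8.82 and 7.41 on the control surface. Within every experiment the wild-type IC array was the lowest of the 4. Across experiments all groups overlapped, because experiment 3 was lower throughout. The means were 8.63 ± 1.09 for *Card9*-/- on the control surface, 8.41 ± 0.87 for *Card9*-/- on IC, 8.17 ± 0.71 for wild type on the control surface and 7.33 ± 0.84 for wild type on IC (SD, n = 3 each), and groups next to each other in this order overlapped.

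The comparison of the genotypes on IC, the one through which *Idh1* entered the list, gave log2 differences of 1.38, 0.91 and 0.97, with a mean of 1.09 (SE 0.17, interval 0.71 to 1.46), a fold of 2.13. On the control surface the same difference was 0.98, 0.42 and -0.05, with a mean of 0.45 (interval 0.08 to 0.83, adjusted p = 0.954, limma). It fell to 0.18 without experiment 1 and was 0.70 without experiment 3. The excess of *Idh1* in *Card9*-/- cells was thus present on IC in each experiment, but on the control surface in 2 of 3.

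Between IC and the control surface the log2 difference of *Idh1* was -0.50, -0.19 and 0.06 in *Card9*-/- cells, with a mean of -0.21 (SE 0.17, interval -0.59 to 0.16, adjusted p = 1.00, limma), which was -0.067 without experiment 1 and -0.35 without experiment 3. In wild-type cells it was -0.90, -0.69 and -0.96, with a mean of -0.85 (SE 0.17, interval -1.22 to -0.47, adjusted p = 0.272, limma), which is a fold of 0.555. Neither of these means passed the threshold over all clusters. Each includes IC arrays that also chose the gene, so neither is independent of that choice. The first uses those of *Card9*-/- cells and the next those of wild-type cells. The difference between these responses was positive in every experiment, 0.40, 0.50 and 1.02, with a mean of 0.64 (interval 0.11 to 1.17). It contains the whole genotype difference on IC through which *Idh1* was chosen and carries no test. Experiment 3, with the lowest levels, had the largest difference of responses, and without it the mean was 0.45.

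*Acod1* and *Idh1* stood opposite to each other in wild-type cells on IC and in *Card9*-/- cells on the control surface. With the mean of each experiment set to 0, wild-type cells on IC had 1.86, 0.69 and 0.50 for *Acod1* and -1.04, -0.67 and -0.71 for *Idh1* in experiments 1, 2 and 3, while *Card9*-/- cells on the control surface had -1.81, -0.56 and -0.48 for *Acod1* and 0.84, 0.43 and 0.20 for *Idh1*. Wild-type cells on IC were thus highest in *Acod1* and lowest in *Idh1* in every experiment, and *Card9*-/- cells on the control surface were lowest in *Acod1* in every experiment but highest in *Idh1* only in experiments 1 and 2. In the remaining groups the signs were mixed. *Card9*-/- cells on IC had 0.39, -0.46 and 0.07 for *Acod1* and 0.34, 0.24 and 0.26 for *Idh1*. Wild-type cells on the control surface had -0.44, 0.32 and -0.10 for *Acod1* and -0.14, 0.01 and 0.25 for *Idh1*. Pearson's r over the 12 centred arrays was -0.85 between *Acod1* and *Idh1*, -0.85 between *Acod1* and *Acly*, and 0.84 between *Idh1* and *Acly*. The points share arrays, experiments and treatment groups, and both *Acod1* and *Idh1* were chosen on values of the wild-type IC arrays, so that the coefficients partly restate that choice. They describe the arrays without a test.

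**Figure D2:**
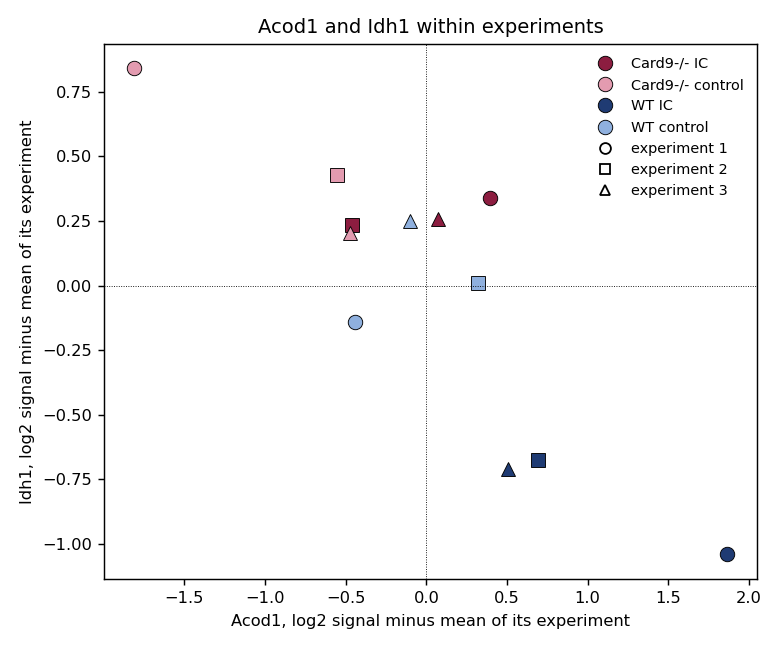
*Acod1* (horizontal) against *Idh1* (vertical), as log2 signal minus the mean of the same experiment, over 12 arrays coloured by group and shaped by experiment. Wild-type cells on IC lie at the high-*Acod1*, low-*Idh1* end and *Card9*-/- cells on the control surface at the other (r = -0.85).

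The remaining isocitrate dehydrogenases varied with the experiment more than with the group. *Idh2*, the mitochondrial NADP-dependent enzyme, had 7.11, 7.22 and 8.69 in *Card9*-/- cells on IC and 7.08, 7.20 and 8.57 on the control surface, and 7.39, 7.10 and 8.43 in wild-type cells on IC and 7.39, 7.26 and 7.84 on the control surface. *Idh3a*, the catalytic subunit of the NAD-dependent enzyme of the cycle, had 5.85, 5.96 and 7.01 in *Card9*-/- cells on IC and 5.79, 5.92 and 7.36 on the control surface, and 5.86, 5.77 and 6.77 in wild-type cells on IC and 5.79, 5.73 and 6.79 on the control surface. Both were highest in experiment 3 in every group. Their genotype differences on IC were 0.03 for *Idh2* (interval -0.38 to 0.44, adjusted p = 0.979, limma) and 0.14 for *Idh3a* (interval -0.14 to 0.42, adjusted p = 0.809, limma). In wild-type cells IC against control gave 0.14 for *Idh2* (interval -0.27 to 0.56) and 0.03 for *Idh3a* (interval -0.25 to 0.30). For *Idh2* the genotype difference on the control surface was -0.32, -0.06 and 0.72 in the 3 experiments, so its mean of 0.12 rested on experiment 3 and was -0.19 without it.

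The enzymes that make and convert citrate moved little. *Cs*, citrate synthase, had 10.23, 10.26 and 9.44 in *Card9*-/- cells on IC and 10.29, 10.25 and 9.77 on the control surface, and 10.001, 10.242 and 9.337 in wild-type cells on IC and 10.11, 10.21 and 10.02 on the control surface. Its log2 difference on IC was -0.13 in *Card9*-/- cells (interval -0.44 to 0.18) and -0.25 in wild-type cells (interval -0.57 to 0.06, adjusted p = 0.580, limma), where experiment 3 supplied -0.69 and the mean without that experiment was -0.04. *Aco1*, the cytosolic aconitase that also serves as an iron regulatory protein, lay between 6.14 and 6.59 on all 12 arrays. Its genotype difference on IC was 0.09, 0.11 and 0.27 in the 3 experiments (interval of the mean -0.08 to 0.39, adjusted p = 0.731, limma).

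*Slc25a1* and *Acly* act in sequence on citrate that leaves the mitochondrion. *Slc25a1*, the citrate carrier of the inner membrane, had 7.92, 7.90 and 7.98 in *Card9*-/- cells on IC and 7.96, 7.88 and 8.03 on the control surface, and 7.90, 8.07 and 8.14 in wild-type cells on IC and 7.76, 7.87 and 7.99 on the control surface. Its mean difference on IC was -0.02 in *Card9*-/- cells (interval -0.23 to 0.18), against 0.16 in wild-type cells (0.14, 0.19 and 0.15 by experiment, interval -0.05 to 0.37, adjusted p = 0.593, limma). The difference of these responses was -0.18, -0.17 and -0.20 in the 3 experiments, uniform in size, with an adjusted p of 0.999 by limma.

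*Acly*, ATP citrate lyase, which cuts citrate into acetyl-CoA and oxaloacetate, had 8.52, 8.53 and 8.46 in *Card9*-/- cells on IC and 8.74, 8.63 and 8.40 on the control surface, and 8.31, 8.49 and 8.31 in wild-type cells on IC and 8.63, 8.59 and 8.56 on the control surface. Its log2 difference on IC was -0.22, -0.10 and 0.06 in *Card9*-/- cells. In wild-type cells, where the groups did not overlap, it was -0.31, -0.10 and -0.25 with a mean of -0.22 (SE 0.10, adjusted p = 0.521, limma). *Mdh1*, the cytosolic malate dehydrogenase that reduces oxaloacetate to malate, had 7.82, 7.89 and 8.99 in *Card9*-/- cells on IC and 8.15, 8.07 and 8.91 on the control surface, and 7.74, 7.86 and 8.51 in wild-type cells on IC and 7.95, 7.94 and 8.43 on the control surface. It was higher in *Card9*-/- than in wild-type cells in every experiment on both surfaces, with mean differences of 0.19 on IC (interval -0.09 to 0.48, adjusted p = 0.714, limma) and 0.27 on the control surface (interval -0.01 to 0.56, adjusted p = 0.954, limma). Without experiment 3 these means were 0.055 on IC and 0.17 on the control surface.

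Counted over the list, few members passed any test, and the counts are set beside those of all 28944 clusters. For *Card9*-/- against wild type on IC, 1 of 9 members (*Idh1*, through which the list was chosen) had an adjusted p under 0.05, as had 0.162% of all clusters, and 2 of 9 an unadjusted p under 0.05, as had 9.13%. In that comparison 6 of 9 members had the same sign in 3 of 3 experiments (28.9% of all clusters) and 1 of 9, *Acod1*, had groups that did not overlap (1.87%). Since the rule used this comparison, nothing is read from its counts. On the control surface 0 of 9 members were called between the genotypes (0.0380% of all clusters), 1 of 9 had an unadjusted p under 0.05 (4.64%), 3 of 9 kept the sign (30.7%) and 0 of 9 had separate groups (1.42%).

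In *Card9*-/- cells 0 of 9 members were called between IC and the control surface (0% of all clusters), 1 of 9, *Acod1*, had an unadjusted p under 0.05 (3.01%), 2 of 9 kept the sign (26.2%) and 0 of 9 had separate groups (0.922%). In wild-type cells 0 of 9 were called (0%), 2 of 9, *Acod1* and *Idh1*, had an unadjusted p under 0.05 (9.59%), 5 of 9 kept the sign (31.0%) and 2 of 9, *Acod1* and *Acly*, had separate groups (1.72%). Nothing is read from the counts in wild-type cells either, since *Acod1* was picked on this response. For the difference between the responses 0 of 9 were called (0%), 1 of 9, *Idh1*, had an unadjusted p under 0.05 (3.68%) and 5 of 9 kept the sign (29.0%). This difference includes the arrays that chose *Idh1*, so nothing is read from its counts. The median log2 difference of the members was 0.13 for the genotypes on IC and 0.08 on the control surface, -0.08 for IC in *Card9*-/- and -0.07 in wild-type cells, against -0.01, 0.03, -0.01 and 0.04 over all clusters. Comparisons that share a group of arrays are not separate observations.

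**Figure D3:**
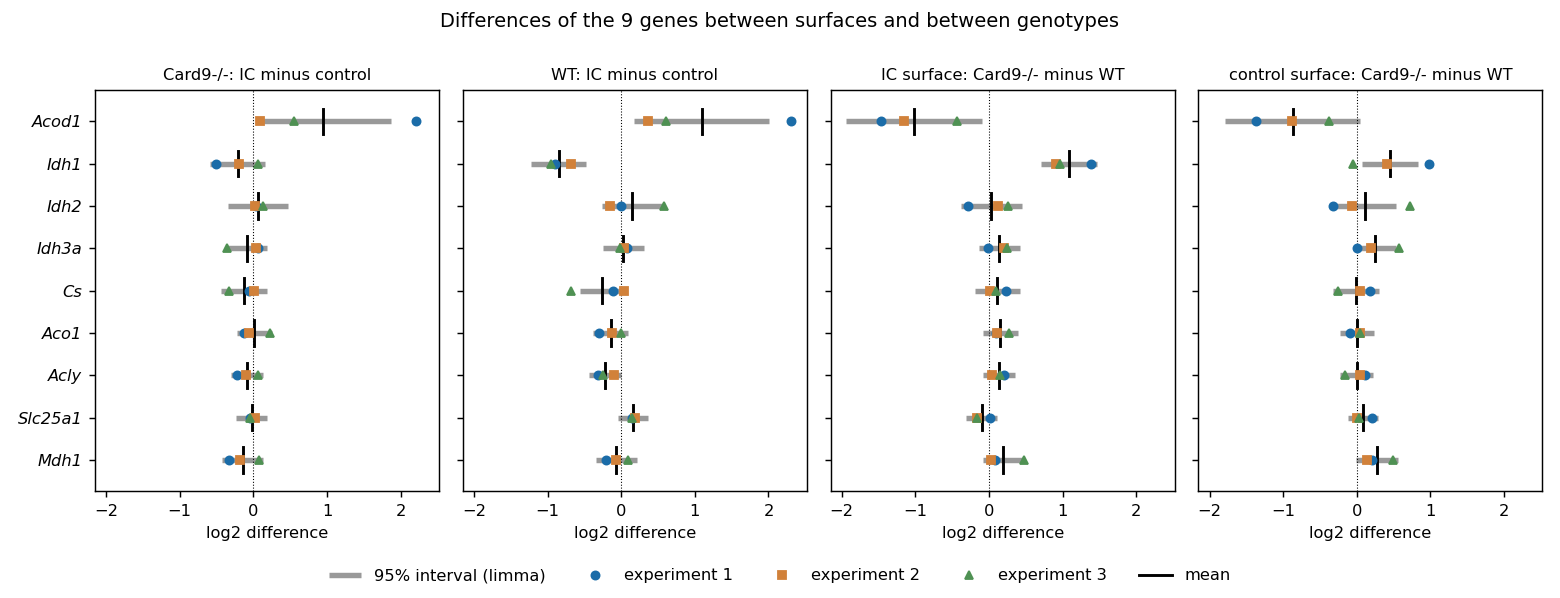
Log2 differences of the 9 genes for IC minus control in each genotype and for *Card9*-/- minus wild type on each surface, 1 panel per comparison. Markers are single experiments, black ticks the means and grey bars the 95% confidence intervals by limma. *Acod1* differs most between experiments for IC minus control, with 2.20, 0.09 and 0.55 in *Card9*-/- and 2.31, 0.37 and 0.61 in wild-type cells.

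The experiment was the largest source of spread for several members. Averaged over the 4 arrays of experiments 1, 2 and 3, *Idh2* had 7.24, 7.20 and 8.38, *Idh3a* 5.82, 5.85 and 6.99, and *Mdh1* 7.91, 7.94 and 8.71. All of these were highest in experiment 3, although the median signal of its arrays was the lowest. *Idh1* ran the other way with 8.43, 8.81 and 7.16, as did *Cs* with 10.16, 10.24 and 9.64. *Acod1* had 10.57, 11.74 and 12.03, lowest in experiment 1, while *Acly* (8.55, 8.56 and 8.43), *Slc25a1* (7.88, 7.93 and 8.03) and *Aco1* (6.36, 6.24 and 6.40) changed by under 0.2.

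Markers of immature granulocytes and of cycling cells moved with experiment 3 as well. All 8 of 8 were measured, and their summed linear signal on single arrays was 4562 to 8154 in experiments 1 and 2 and 11596 to 15563 in experiment 3. By group the sums in experiments 1, 2 and 3 were 5644, 8120 and 11801 in *Card9*-/- cells on IC, 4562, 8154 and 15563 in *Card9*-/- control cells, 6645, 7356 and 11596 in wild-type cells on IC and 6810, 7050 and 13086 in wild-type cells on the control surface. Experiment 3 was thus high in every group. The part of these cells in the signals of *Idh2*, *Idh3a* and *Mdh1* was not tested.

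**Figure D4:**
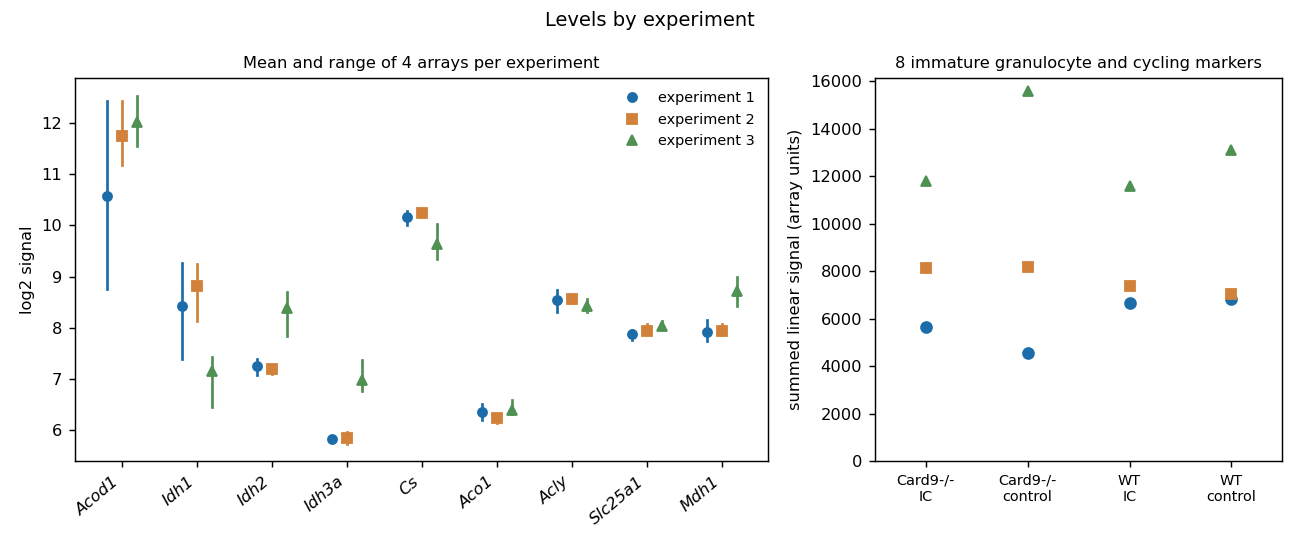
Left, log2 signal of each member in experiments 1, 2 and 3, with the mean of 4 arrays as a marker and their range as a line. Right, summed linear signal of the 8 immature granulocyte and cycling markers on each array, by group. *Idh2*, *Idh3a* and *Mdh1* are highest in experiment 3 and *Idh1* and *Cs* lowest, and the marker sums are highest in experiment 3 in every group.

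Most markers of B cells and of eosinophils, basophils and mast cells had higher signals in the *Card9*-/- groups on both surfaces. No marker of another cell type passed the limma threshold between the genotypes, which 0.162% of all clusters passed on IC and 0.0380% on the control surface. Of the B cell markers 7 of 8 were measured and all 7 were higher in *Card9*-/- cells on IC. Their median log2 difference was 0.68, with a per-experiment median of 1.59, 0.03 and 0.58, and on the control surface 7 of 7 were higher with a median of 0.58 (1.13, 0.15 and 0.36). Their summed signal ranged over 364 to 5377 in *Card9*-/- cells on IC, 351 to 2884 in *Card9*-/- cells on the control surface, 332 to 3664 in wild-type cells on IC and 310 to 2189 in wild-type cells on the control surface. For eosinophils, basophils and mast cells 11 of 11 were measured and 11 were higher, with a median of 0.45 (-0.07, 0.23 and 0.84 by experiment), against 10 of 11 and a median of 0.33 (-0.14, 0.34 and 0.91) on the control surface, and sums of 5072 to 10775 in *Card9*-/- cells on IC, 4855 to 12913 on the control surface, 3526 to 6550 in wild-type cells on IC and 4266 to 7200 on the control surface. An array signal has no true 0. *Cd79a*, which defines B cells, ranged over 4.79 to 10.43 in log2 signal, and *Epx*, which defines eosinophils, over 9.33 to 11.60. Beside these, the genotype difference of *Idh1* on IC was 1.38, 0.91 and 0.97 in experiments 1, 2 and 3, the same order as the B cell medians. On the control surface it was 0.98, 0.42 and -0.05, an order that the B cell medians there did not share. The part of these cells in the *Idh1* signal was not tested. Monocyte and macrophage markers (9 of 9 measured) had a median of -0.05 between the genotypes on IC (0.02, -0.54 and 0.18 by experiment). The list was mixed, with 3 higher and 6 lower, from -0.92 to 0.34. In every experiment 1 was higher and 1 lower. An unadjusted p under 0.05 by limma was found for 3 of 9 (9.13% of all clusters). The sums, which weigh bright markers most, were 2341 to 4051 in *Card9*-/- cells on IC and 2421 to 4058 on the control surface. In wild-type cells they were 3620 to 5296 on IC and 2331 to 5284 on the control surface. In each experiment the sum on IC in *Card9*-/- cells lay below that in wild-type cells (2341 against 3620, 3077 against 5296 and 4051 against 4295), as did *Acod1*. On the control surface these sums in *Card9*-/- and wild-type cells were 2421 against 2331, 4058 against 5284 and 3097 against 3105. *Acod1* was lower in *Card9*-/- cells in each of these experiments. The part of monocytes and macrophages in the *Acod1* signal was not tested. All 10 of 10 neutrophil markers were measured. In experiments 1, 2 and 3 they summed to 55614, 56633 and 49391 in *Card9*-/- cells on IC and 52279, 56410 and 47771 on the control surface. In wild-type cells the sums were 49956.5, 49803 and 51717 on IC and 53975.5, 52703 and 56333 on the control surface. In each experiment the sum was thus higher on IC in *Card9*-/- cells and lower on IC in wild-type cells. The difference of responses was positive in every experiment for 9 of 10 markers, as it was for *Idh1*, and 29.0% of all clusters kept their sign. The part of this in the *Idh1* signal was not tested.

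The rest of the pathway was read through lists, in none of which a gene passed the threshold in any comparison. Of all clusters 0.162% passed it between the genotypes on IC, 0.0380% on the control surface and 0% in the other comparisons. Nothing is therefore read from the absence of calls in the lists. In the list of other TCA cycle enzymes 14 were measured. On IC 10 of the 14 had a negative log2 difference from the control surface in *Card9*-/- cells (median -0.06) and 11 in wild-type cells (median -0.07). *Sdha*, the catalytic subunit of succinate dehydrogenase, the enzyme that itaconate inhibits, was -0.16, -0.24 and -0.45 on IC in wild-type cells, with a mean of -0.28 (SE 0.10, adjusted p = 0.438, limma), and its partner *Sdhd*, a membrane anchor, averaged -0.16 (adjusted p = 0.609, limma). Between the genotypes on IC *Sdhd* averaged -0.12 and *Sucla2*, a subunit of succinyl-CoA synthetase, 0.21, of which experiment 3 alone supplied 0.87. For the partners of the members, *Idh3b* and *Idh3g*, the other subunits of the NAD-dependent isocitrate dehydrogenase, had -0.08 and -0.07 on IC in wild-type cells, *Mdh2*, the mitochondrial malate dehydrogenase, -0.03, and *Ireb2*, the relative of *Aco1* that regulates iron metabolism, -0.40 (adjusted p = 0.499, limma), with -1.04 in experiment 3 and 0.02 in experiment 2.

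Genes of pyruvate entry and anaplerosis (17 of 19 measured) had a median of -0.03 on IC in wild-type cells, 8 higher and 9 lower. *Pdk3*, a kinase that inactivates pyruvate dehydrogenase, averaged -0.43 there (SE 0.12, adjusted p = 0.416, limma) with -0.51, -0.48 and -0.29, and 0.24 between the genotypes on IC. *Got2*, the mitochondrial aspartate aminotransferase, averaged -0.21 on IC in wild-type cells, and *Slc25a11*, the oxoglutarate carrier, 0.34 between the genotypes on IC, where experiment 3 had -0.12. In the list of cytosolic citrate use (12 of 14 measured, median 0.09 on IC in wild-type cells and -0.05 between the genotypes on IC), *Scd2*, a stearoyl-CoA desaturase, was 0.63, 0.47 and 0.45 in *Card9*-/- relative to wild-type cells on IC, with a mean of 0.52 (SE 0.12, adjusted p = 0.170, limma). *Acss2*, which makes acetyl-CoA from acetate, had -0.45, -0.21 and -0.33 there, with a mean of -0.33 (adjusted p = 0.394, limma). *Sqle* and *Insig1*, of sterol synthesis and its control, averaged 0.28 (adjusted p = 0.488, limma) and 0.37 (adjusted p = 0.609, limma) on IC in wild-type cells.

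Other producers of NADPH (6 of 7 measured) had a median of -0.05 between the genotypes on IC and -0.06 on IC in wild-type cells. *Me1*, the cytosolic malic enzyme, averaged 0.30 on IC in wild-type cells (0.48, 0.09 and 0.33, adjusted p = 0.440, limma) and -0.17 between the genotypes on IC. *Nnt*, the mitochondrial transhydrogenase, averaged -0.31 on IC in wild-type cells (adjusted p = 0.499, limma), and *Taldo1*, transaldolase, -0.16 between the genotypes on IC. All 5 of 5 genes of the itaconate breakdown list were measured, with a median of -0.13 on IC in wild-type cells and 0.15 between the genotypes on IC. There the means of 5 were higher, but only 2 of 5 were higher in every experiment (28.9% of all clusters kept their sign). *Clybl* averaged 0.005 there (-0.17, 0.26 and -0.07 by experiment), and *Sucla2* was positive only in experiment 3. On the control surface 4 of 5 were higher. *Auh*, a hydratase of the mitochondrial matrix, averaged -0.40 on IC in wild-type cells (-0.52, -0.45 and -0.23, SE 0.11, adjusted p = 0.389, limma). Between the genotypes on IC *Auh* averaged 0.21 (adjusted p = 0.583, limma). *Suclg2*, a subunit of succinyl-CoA synthetase, averaged -0.13 on IC in wild-type cells. The succinyl-CoA synthetase subunits belong to both this list and that of the cycle.

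The clusters most like *Acod1* over the 12 arrays, by Pearson's r of values centred on each experiment among 21789 clusters of a single gene, were *Cd14*, a coreceptor for lipopolysaccharide (0.978), *Cxcl2*, a neutrophil chemokine (0.976), *Ptgs2*, cyclooxygenase (0.970), *Smox*, spermine oxidase (0.959), and *Samsn1*, an adaptor (0.951). Those most like *Idh1* were *Tspan14* (0.974), *Klhl6* (0.967), *Rasal3* (0.962), *Plcb2* (0.959) and *Zfp985* (0.959). No enzyme of the cycle was among either group of 5. These coefficients are the highest among 21789 clusters, for genes chosen on these arrays, and carry no test. Centred *Acod1* spanned -1.81 to 1.86 in experiment 1, -0.56 to 0.69 in experiment 2 and -0.48 to 0.50 in experiment 3. Experiment 1 thus weighs most in the coefficients of *Acod1*.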

How the data were processed

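The deposited values are log2 signals of 35556 rows on 12 Affymetrix arrays, normalized by the authors by a method not given in the sources used here. They were used as deposited. Without 6612 rows taken for control probe sets, 28944 transcript clusters remained, of which 21789 name 1 gene. limma 3.58.1 (R 4.3.3) fitted lmFit and eBayes with the 4 groups and the experiment as a block over all clusters (6 residual and 5.40 prior degrees of freedom). Tests are two-sided, adjusted over all clusters by the Benjamini-Hochberg method, with a threshold of 0.05. The experiment pairs the arrays, as the labels give separate time points with all groups in each. Deviations from group means correlated at 0.67 to 0.87 within and -0.73 to 0.36 between experiments. The members and all lists were chosen with earlier results of these data known. Named genes are the members, their partners, and in each list the 2 with the smallest p for the genotypes on IC and the 2 for IC in wild-type cells. Only a few arrays per group limit the precision. The procedure was also run on simulated data with independent normal noise, the experiment terms of the fit and changes of the same size in every experiment. Such data cannot show how the fit handles responses that vary between experiments, as that of *Acod1* did. Alternatives were no block, a random block, array median centring, quantile normalization, clusters above the median signal, a factorial model without moderation, only the groups compared, and leaving out each experiment. Promoter sequences and motif searches used RefSeq (GRCm38.p6), and summaries and figures Python 3.11.15 with numpy 2.4.6, pandas 2.3.3, scipy 1.17.1 and matplotlib 3.10.9.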

Additional observations from a re-analysis of the deposited data

How the results depend on the processing

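The only call among the members, *Idh1* between *Card9*-/- and wild-type cells on IC, was lost under 6 of 10 alternatives, so that 0 members were called without the replicate block (adjusted p = 1.00, limma), after array median centring (0.0743), in the factorial model without moderation and without block (1.00) and without each experiment (0 to 0 members, with adjusted p of 0.0714, 0.494 and 0.0553 without experiments 1, 2 and 3), while its log2 difference stayed between 0.94 and 1.18 without an experiment. This comparison put *Idh1* on the list, so these values describe how the choice depends on the setting, and the call in the other 4 alternatives is no support for it. Clusters called in that comparison numbered 47, but 0 without the replicate block and in the factorial model, 22 after centring, 105 with a random block, 173 with only the groups compared, and 3 to 116 without an experiment. On IC in wild-type cells they numbered 0, but 7 with a random block and 1 to 51 without an experiment, and between the genotypes on the control surface 11, but 1 without the replicate block, 0 in the factorial model, 7 with only the groups compared and 2 to 7 without an experiment. For the other 2 comparisons they stayed at 0.

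The median over the members on IC in wild-type cells was -8.33e-07 after quantile normalization and -0.077 to 0.0061 without an experiment, and in *Card9*-/- cells -0.076 to -0.019 without an experiment. Between the genotypes on the control surface it was 0.029 after centring and 0.126 after quantile normalization. For the difference of the responses it was -0.0032 after centring, -0.116 after quantile normalization and -0.066 to 0.012 without an experiment. Signs turned for small differences. On IC in wild-type cells *Idh3a* was -0.025 after centring, and without an experiment *Mdh1* ranged over -0.14 to 0.0061 and *Idh2* over -0.077 to 0.29. In *Card9*-/- cells *Aco1* was -0.0027 after quantile normalization and -0.094 to 0.083 without an experiment, where *Idh3a* was -0.155 to 0.052. Between the genotypes on IC *Idh2* was -0.083 to 0.19 without an experiment. On the control surface *Aco1* was -0.053 after centring, -0.033 after quantile normalization and -0.023 to 0.045 without an experiment, *Acly* 0.054 after quantile normalization and -0.058 to 0.077 without an experiment, *Cs* 0.040 and -0.10 to 0.11, and *Idh2* -0.19 to 0.33 without an experiment. The difference of responses of *Idh2* was -0.21 to 0.11. The cause of these changes was not tested. *Acod1*, *Idh1* and *Slc25a1* kept their direction in all comparisons and alternatives. Averaging over clusters of a gene was not run, since each member has 1 cluster.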
